A study of Mus musculus with 12 samples.

Results

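The 6 genes described here, Otx2, Pou3f1, Foxd3, Zic2, Zic5 and Sall2, encode transcription factors associated with the formative epiblast. They were taken by name from a table of 13508 named genes measured in 12 libraries of mouse embryonic stem cells, using for each name the locus with the highest mean level. All 4 cell lines were 129SvEv: lines 18 and 26 were wild type (WT), and lines 25 and 39 were Arkadia -/-, called null here. Arkadia (Rnf111) is a ubiquitin ligase whose targets include SnoN, a repressor of SMAD2/3 signalling, and the series asks how both shape the dose-dependent response to that signal. All lines were maintained in medium with LIF, the GSK3 inhibitor CHIRON and the MEK inhibitor PD03, moved to N2B27 on fibronectin for 24 h, and then given 10 µM SB431542, an inhibitor of the Activin and Nodal receptor kinases, for 4 h. From each line 1 dish was harvested at this point (SB), and the other dishes were washed and received Activin A at 10 ng/ml, with harvest after 3 h and after 6 h. Every washed dish received Activin, so the agent, the removal of the inhibitor and the hours in culture cannot be told apart. The labels do not say how the null lines were derived or whether lines are single clones, and each of the 6 groups holds 2 lines.

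As pluripotent cells leave the naive state, they pass through a formative state in which naive factors recede and the cells become competent for lineage choice. OTX2, a homeodomain protein, redirects the pluripotency factor OCT4 to new enhancers during this step, and Pou3f1 (OCT6), a POU-domain factor, comes on beside it. FOXD3, a forkhead protein, is required in the early epiblast and acts at enhancers as naive cells become primed. ZIC2 and ZIC5 are zinc finger proteins encoded by neighbouring genes read in opposite directions, and SALL2 belongs to the spalt family of zinc finger proteins. Several of these genes are used again in the neural plate or, in the case of Foxd3, the neural crest.

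Levels are given as FPKM, read counts scaled by transcript length and by the mapped reads of the library. Read totals were not used, since no source here gives them. From the smallest steps between low values, depth relative to the shallowest library ran from 1 to 1.81, with the shallowest libraries among the null lines given Activin. Rnf111 stood at 3.19 to 4.27 FPKM in the WT libraries and at 0.539 to 0.855 in the null libraries, so all 12 labels matched it. Embryonic stem cell markers were high, with 9 of 9 measured and summed levels of 1414 to 2225 FPKM. The summed levels of markers of other cells were 4.83 to 8.62 FPKM for extraembryonic endoderm (6 of 9 listed genes measured), 14.1 to 30.7 for trophoblast (7 of 8) and 10.1 to 20.0 for fibroblasts (6 of 9). Sox17 and Foxq1 were listed at 0 in at least 1 library. Krt7 was the highest trophoblast marker, at 6.79 to 16.4 FPKM. The endoderm sum was higher at 3 h (6.48 to 8.62) than in SB (4.83 to 6.23). Of 4 endoderm markers tested, only Gata4 was called at 3 h, higher in both genotypes. Mean Gata4 was 0.81 FPKM in SB and 2.54 at 3 h in WT lines, and 0.48 and 1.76 in null lines. Mean Foxq1 and Afp were also higher at 3 h, while Sox17 was lower, and Dab2 was lower in WT lines (1.56 against 2.62). Within each of the 4 lines the trophoblast sum was also higher at 3 h than in SB. The difference was largest in null line 25 (30.7 against 21.9) and smallest in null line 39 (19.4 against 18.1). The trophoblast list includes Eomes, which is also an Activin and Nodal target. Mean Eomes was 1.20 FPKM in SB and 5.24 at 3 h in WT lines, and 1.01 and 3.90 in null lines. Mean Krt7 was also higher at 3 h (10.4 against 7.84 in WT lines, 13.1 against 9.43 in null lines), while Plet1 and Tfap2c were lower. In SB the median log2 difference of null from WT lines was 0.25 over 7 trophoblast markers (6 positive) and 0.37 over 6 fibroblast markers (4 positive), with 0 of either called. The part of these markers in the results was not tested. In bulk RNA, fewer cells of a type and less RNA per cell cannot be told apart.

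The loci differ in how well they cover the genes. Positions follow the deposited table on mm10, and gene models were taken from GENCODE M21 of that build. Otx2 (chromosome 14, 48656616 to 48667566, minus strand), Zic5 (chromosome 14, 122456612 to 122466144, minus strand), Zic2 (chromosome 14, 122475149 to 122480424, plus strand), Sall2 (chromosome 14, 52311174 to 52328519, minus strand) and Foxd3 (chromosome 4, 99653441 to 99658676, plus strand) hold 100% of the annotated coding bases. The Pou3f1 locus (chromosome 4, 124656726 to 124657510, plus strand) spans 785 bp at the 5′ end and holds 18.3% of the exon bases and 0% of the coding bases. An antisense gene, Gm2164, overlaps that stretch, and no source used here says whether reads were counted by strand. The Pou3f1 values therefore describe that stretch and not the coding sequence. The Foxd3 locus is shared with the antisense noncoding gene Gm12688, which the table lists separately at the same coordinates, and the Zic2 locus is overlapped at its 5′ end by the antisense transcript 2610035F20Rik. A further locus named Otx2, at 0 to 4.59 FPKM, was not used.

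Promoter sequences were given for 4 of the 6 genes in the RefSeq table used here (GRCm38.p6), and not for Pou3f1 and Zic2. They are shown because the genes were measured after a change in Activin signalling, and capitals mark letters that match the motifs searched. Each run is the 250 bases before the annotated start closest to the locus, written 5′ to 3′ on the gene's own strand.
Otx2, chr14:48667509-48667758, minus strand: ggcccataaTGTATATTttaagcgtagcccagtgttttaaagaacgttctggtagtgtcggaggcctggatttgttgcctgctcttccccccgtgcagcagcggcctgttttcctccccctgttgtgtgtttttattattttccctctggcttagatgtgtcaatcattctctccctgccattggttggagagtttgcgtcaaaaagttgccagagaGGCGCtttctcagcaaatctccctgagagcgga
Foxd3, chr4:99656049-99656298, plus strand: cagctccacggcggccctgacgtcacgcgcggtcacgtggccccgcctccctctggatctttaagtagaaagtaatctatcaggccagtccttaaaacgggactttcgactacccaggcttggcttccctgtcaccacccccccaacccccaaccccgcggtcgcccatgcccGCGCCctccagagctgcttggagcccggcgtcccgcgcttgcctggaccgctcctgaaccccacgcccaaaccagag
Zic5, chr14:122465659-122465908, minus strand: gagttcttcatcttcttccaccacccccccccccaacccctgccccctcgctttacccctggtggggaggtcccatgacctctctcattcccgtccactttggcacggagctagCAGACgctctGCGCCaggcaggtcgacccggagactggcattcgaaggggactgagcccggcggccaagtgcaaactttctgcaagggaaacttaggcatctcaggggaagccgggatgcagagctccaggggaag
Sall2, chr14:52328671-52328920, minus strand: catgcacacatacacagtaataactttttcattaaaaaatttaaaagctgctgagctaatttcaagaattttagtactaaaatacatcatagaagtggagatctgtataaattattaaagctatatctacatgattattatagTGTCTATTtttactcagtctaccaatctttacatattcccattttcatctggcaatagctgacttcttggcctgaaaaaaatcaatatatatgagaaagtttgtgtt
The motifs, searched on both strands, were CAGAC and GGCGC (SMAD), TGTNNATT (FOXH1, a partner of SMAD2/3), TAATCC (OTX), CTTTGAT (TCF/LEF) and the octamer of POU factors. GGCGC matched in Otx2, Foxd3 and Zic5, and is held by 32% of 32851 windows of the same length before annotated starts. CAGAC matched in Zic5 alone among the 4, against 42.2% of all windows. TGTNNATT matched in Otx2 at position -241 and in Sall2 at position -107, counted from the start, against 10.9% of all windows. The OTX, TCF/LEF and POU letters were absent from these 4 windows, and stood in 6.25%, 3.21% and 1.6% of all windows. The 4 windows ranged from 28% GC in Sall2 to 65.6% in Foxd3, and a match is a description of letters only.

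All 6 genes were expressed in each library. Otx2 had the highest median over the 12 libraries, 52.2 FPKM, and its mean lay above that of 85.7% of the 12823 genes tested. Pou3f1 followed with a median of 29.8 FPKM, then Zic2 at 12.9, Zic5 at 11.4, Sall2 at 7.63 and Foxd3 at 5.26. The ranges of Zic2 and Zic5 overlapped, as did those of Sall2 and Foxd3. The ratio of the highest to the lowest library was small for each gene, from 1.58 for Zic5 to 1.85 for Foxd3. All 6 passed the filter on low values (at least 1 FPKM in at least 2 libraries). Differences were tested with limma on log2(FPKM + 1) over all 12823 genes, two-sided, and a gene is said to rise, fall or be called where its Benjamini-Hochberg adjusted p was below 0.05. Labels do not say whether the dishes of a line were separate experiments, so p-values measure the spread between these libraries.

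**Figure D1:**
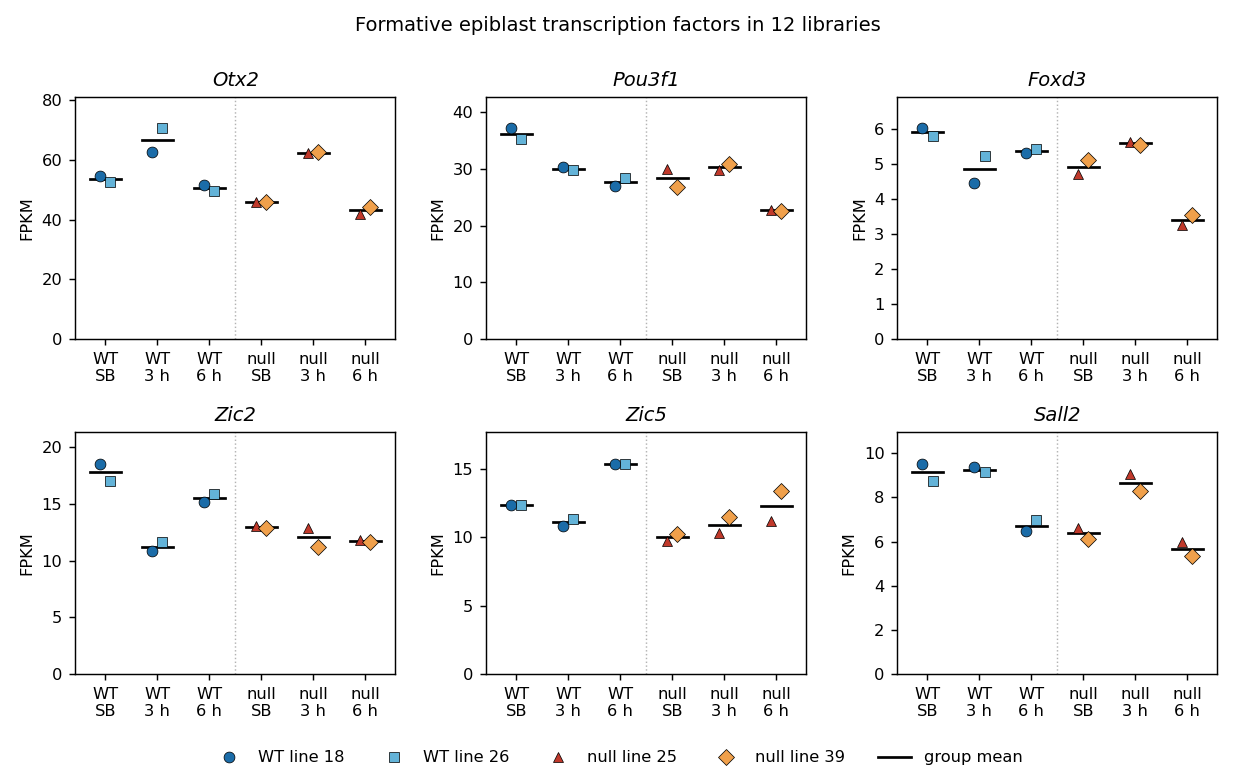
The 6 panels plot FPKM (vertical axes) for each gene against group (horizontal axes); points are single libraries, their colour gives the line, and short bars are group means. Otx2 is highest at 3 h in both genotypes, Zic2 drops at 3 h from 17.7 to 11.2 FPKM in the WT lines, and the 6 genes are lower in null than in WT lines in SB and at 6 h.

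Otx2 rose at 3 h of Activin in both genotypes and was back near its SB level at 6 h. In WT lines 18 and 26 it stood at 54.6 and 52.6 FPKM in SB, 62.6 and 70.6 at 3 h, and 51.7 and 49.7 at 6 h. Null lines 25 and 39 had 46.0 and 45.9 FPKM in SB, 62.5 and 62.5 at 3 h, and 41.9 and 44.3 at 6 h. The 4 libraries at 3 h lay above the other 8, while SB and 6 h libraries of a genotype lay close together. The log2 change at 3 h was 0.31 in WT lines (SE 0.0665, limma adjusted p = 0.0159) and 0.44 in null lines (adjusted p = 0.00523). From 3 to 6 h Otx2 fell by 0.38 in WT lines (adjusted p = 0.0251) and by 0.53 in null lines (adjusted p = 0.00716). Against SB, the change at 6 h was -0.08 in WT lines (adjusted p = 0.425) and -0.09 in null lines (adjusted p = 0.376). With quantile normalization the WT change at 3 h was 0.19 (adjusted p = 0.0734), so that call was lost.

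Sall2 had the same order of times in null lines, and fell late in WT lines. In WT lines 18 and 26 it stood at 9.52 and 8.75 FPKM in SB, 9.36 and 9.12 at 3 h, and 6.46 and 6.98 at 6 h. In null lines 25 and 39 it stood at 6.62 and 6.12 FPKM in SB, 9.04 and 8.28 at 3 h, and 6.00 and 5.35 at 6 h. The WT lines thus overlapped between SB and 3 h and were lower at 6 h, whereas both null lines were higher at 3 h than at either other time. Sall2 rose by 0.39 at 3 h in null lines (adjusted p = 0.0187), with a change of 0.02 in WT lines (adjusted p = 0.907). In WT lines it was lower at 6 h by 0.39 (log2 change -0.39, adjusted p = 0.0168), and from 3 to 6 h it fell by 0.41 in WT lines (adjusted p = 0.0412) and by 0.53 in null lines (adjusted p = 0.014). The difference between genotypes in the 3 h change was 0.37 (SE 0.116, adjusted p = 0.78), so it was not called.

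Pou3f1, read at its 5′ stretch, was lower at 3 h and 6 h than in SB in WT lines, and in null lines it was lower only at 6 h. WT lines 18 and 26 had 37.1 and 35.2 FPKM in SB, 30.2 and 29.8 at 3 h, and 26.97 and 28.4 at 6 h. The levels in null lines 25 and 39 were 30.0 and 26.8 FPKM in SB, 29.9 and 30.9 at 3 h, and 22.7 and 22.6 at 6 h. The WT lines were lower at each later time, and the null lines overlapped between SB and 3 h and were lower at 6 h. In WT lines Pou3f1 fell by 0.26 at 3 h (limma adjusted p = 0.0259) and by 0.37 at 6 h (adjusted p = 0.00821), both from SB. The WT change from 3 to 6 h was -0.11 (adjusted p = 0.445) and was not called. In null lines the change was 0.10 at 3 h (adjusted p = 0.345), and at 6 h Pou3f1 fell by 0.31 from SB (adjusted p = 0.0185) and by 0.41 from 3 h (adjusted p = 0.0156).

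Foxd3 was the member with the lowest median level and the largest ratio of its highest to its lowest library (1.85). WT lines 18 and 26 had 6.01 and 5.79 FPKM in SB, 4.46 and 5.22 at 3 h, and 5.30 and 5.42 at 6 h. Null lines 25 and 39 had 4.71 and 5.11 FPKM in SB, 5.62 and 5.55 at 3 h, and 3.25 and 3.55 at 6 h. The 2 null libraries at 6 h were the lowest of the 12 for this gene. In null lines Foxd3 fell by 0.43 at 6 h against SB (SE 0.0833, adjusted p = 0.0143) and by 0.58 against 3 h (adjusted p = 0.0111). In WT lines the changes were -0.24 at 3 h (adjusted p = 0.0656) and -0.12 at 6 h (adjusted p = 0.342). The former was called with the line as a block (adjusted p = 0.0475), a fit that called 37.2% of all genes at 3 h, against 22.5% without the block. The antisense gene Gm12688 at the same coordinates stood at 5.87 to 8.65 FPKM in WT and 4.44 to 8.01 in null libraries, and in each line it was highest at 3 h. Its part in the Foxd3 values was not tested.

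Zic2 showed the largest change of the 6 genes, a drop in the WT lines at 3 h. In WT lines 18 and 26 it stood at 18.5 and 17.0 FPKM in SB, 10.8 and 11.6 at 3 h, and 15.1 and 15.8 at 6 h. Null lines 25 and 39 had 12.998 and 12.8 FPKM in SB, 12.9 and 11.2 at 3 h, and 11.8 and 11.7 at 6 h. The WT libraries in SB and at 6 h lay above all null libraries, whereas at 3 h WT line 18 lay below the null libraries and WT line 26 within their range. In WT lines Zic2 fell by 0.62 at 3 h (SE 0.0767, adjusted p = 0.00128) and rose by 0.43 from 3 to 6 h (adjusted p = 0.0262). In null lines the change at 3 h was -0.10 (adjusted p = 0.418), at 6 h -0.13 (adjusted p = 0.267), and between both times -0.03 (adjusted p = 0.845). The difference between genotypes in the 3 h change was 0.52 (95% interval 0.27 to 0.77, unadjusted p = 0.00108, adjusted p = 0.661). It was not called over all genes.

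Zic5, the neighbour of Zic2 on the opposite strand, had its highest levels at 6 h. Levels in WT lines 18 and 26 were 12.4 and 12.3 FPKM in SB, 10.8 and 11.4 at 3 h, and 15.3 and 15.4 at 6 h. Levels in null lines 25 and 39 were 9.75 and 10.2 FPKM in SB, 10.3 and 11.5 at 3 h, and 11.2 and 13.4 at 6 h. The WT libraries at 6 h were above the other 10, and null line 39 was above null line 25 at each time. From 3 to 6 h Zic5 rose by 0.44 in WT lines (SE 0.0857, adjusted p = 0.0387), against 0.16 in null lines (adjusted p = 0.333). Against SB the change at 6 h was 0.29 in WT lines (adjusted p = 0.0504) and 0.27 in null lines (adjusted p = 0.0718). With the line as a block both were called (adjusted p = 0.00937 and 0.0145). That fit called 33.9% of all genes in WT lines and 31.4% in null lines, against 15.9% and 13.4% without the block.

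Set against its neighbour within the same library, Zic2 moved down relative to Zic5 after SB, a comparison that a scale factor of the library cannot change. The ratio of their FPKM was 1.497 and 1.38 in WT lines 18 and 26 in SB, 0.999 and 1.02 at 3 h, and 0.987 and 1.03 at 6 h. In null lines 25 and 39 it was 1.33 and 1.25 in SB, 1.25 and 0.979 at 3 h, and 1.05 and 0.872 at 6 h. Each of the 4 lines had its highest ratio in SB. The means were 1.44 ± 0.0860 in WT and 1.29 ± 0.0553 in null lines in SB (SD, n = 2). With 2 lines a group no exact test of this ratio within a genotype was run.

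**Figure D2:**
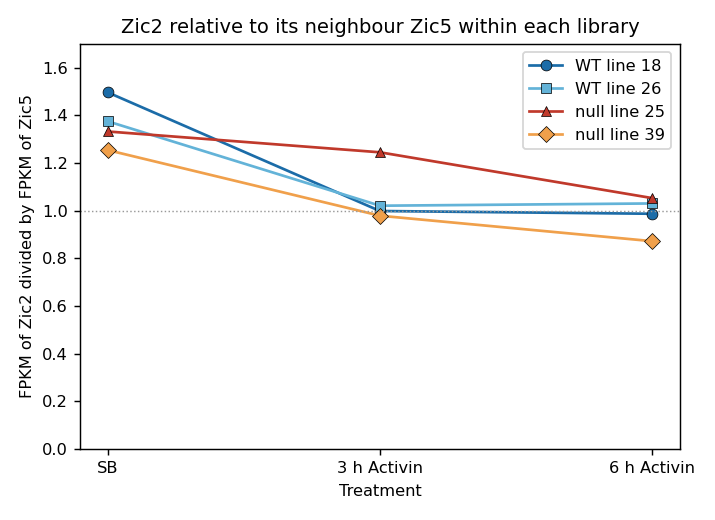
FPKM of Zic2 divided by FPKM of Zic5 (vertical axis) in SB and at 3 and 6 h of Activin (horizontal axis), with a line per cell line. WT lines go from 1.497 and 1.38 in SB to about 1 at both later times, and null line 25 is still at 1.25 at 3 h.

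Counted over the 6 genes, the response at 3 h in WT lines had 1 rise (Otx2) and 2 falls (Pou3f1, Zic2). The same test called 22.5% of all genes (12.6% higher and 9.83% lower, 1622 and 1260 genes, or 1372 and 1699 with quantile normalization), so the share of members is read against that background. Both WT lines were higher at 3 h for 1 member (34.9% of all genes) and lower for 4 (35.6%). In null lines at 3 h there were 2 rises (Otx2, Sall2) and 0 falls, against 13.6% of all genes called (6.5% higher and 7.14% lower). Both null lines were higher at 3 h for 4 members (25% of all genes) and lower for 0 (30.1%). At 6 h against SB, 0 members rose and 2 fell in WT lines (Pou3f1, Sall2; background 15.9%, of which 9.59% higher and 6.31% lower, or 1230 and 809 genes against 1160 and 1328 with quantile normalization) and 0 rose and 2 fell in null lines (Pou3f1, Foxd3; background 13.4%, or 7.87% higher and 5.53% lower). At 6 h 1 member was higher and 5 were lower in both lines of either genotype, where 37.2% and 32.2% of all genes were so in WT and 26.9% in each direction in null lines. Between 3 and 6 h the shares were further from the background: in WT lines 2 rose (Zic2, Zic5) and 2 fell (Otx2, Sall2), against 2.53% of all genes (1.22% higher and 1.31% lower), and in null lines 0 rose and 4 fell (Otx2, Sall2, Pou3f1, Foxd3), against 4.63% (2.78% higher and 1.86% lower). Lines did not overlap for 3 members higher (31.1% of all genes) and 3 lower (26.7%) in WT lines, and for 0 higher (26.8%) and 4 lower (20.3%) in null lines. The median change from 3 to 6 h in null lines was -0.47 over the members and 0.02 over all genes tested. In WT lines these were 0.01 and 0.01. The comparisons of 3 h and 6 h with SB share the SB libraries, and those of 6 h with 3 h share libraries with both.

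The counts of members followed the counts over all genes when lines were left out, so they are given together. Without WT line 18 or WT line 26, 0 of the 6 genes were called in any of these contrasts, null lines included, but 143 and 137 of the 12823 genes (1.12% and 1.07%) were then called at 3 h in WT lines, and 0 genes from 3 to 6 h in either genotype. A count of 0 members in those fits therefore says nothing particular to the members. Without null line 25 or 39, the WT counts were 3 members at 3 h, where 34% of all genes were called in either fit, 3 at 6 h (30.3% and 30.4%) and 4 from 3 to 6 h (3.56% in either). In null lines, the rises at 3 h (Otx2, Sall2) and the falls at 6 h (Pou3f1, Foxd3) were not all kept without null line 25 or 39. The count over all genes changed in these fits too. The log2 changes at 3 h were 0.44 for Otx2 and 0.38 for Sall2 in line 39, and 0.43 and 0.40 in line 25. The log2 changes at 6 h were -0.24 for Pou3f1 and -0.42 for Foxd3 in line 39, and -0.38 and -0.43 in line 25. From 3 to 6 h in null lines both fits called 0 members and 0 genes.

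When only the groups compared entered the fit, the same number of members was called at 3 h in WT lines (3, with 28.8% of all genes), and Zic5 was added at 6 h (adjusted p = 0.0243), for 3 members and 24.3% of all genes. That fit called 0 members from 3 to 6 h in WT lines (63 genes, 0.491%), and 0 in null lines at 3 h (176 genes, 1.37%), at 6 h (127 genes, 0.99%) and from 3 to 6 h (0 genes).

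**Figure D3:**
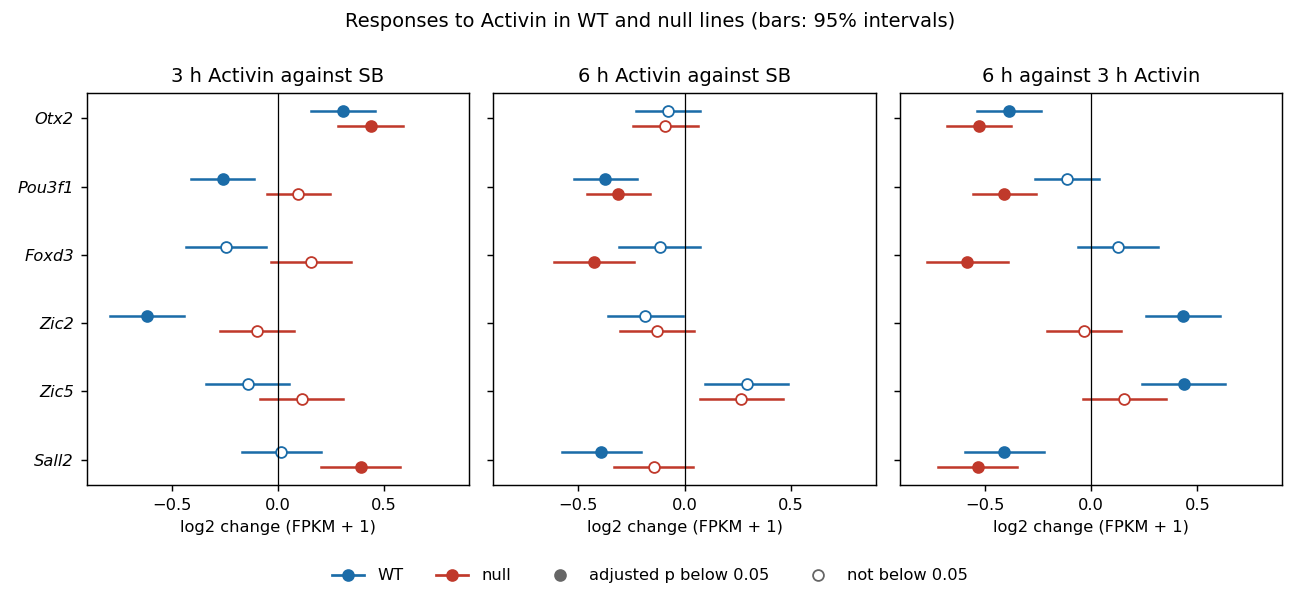
Log2 change in FPKM + 1 (horizontal axes) of the 6 genes (vertical axes) in WT and null lines, in panels for SB to 3 h, SB to 6 h and 3 h to 6 h, with bars for 95% intervals and filled points where the adjusted p was below 0.05. Zic2 has the largest WT change at 3 h (-0.62), and 4 of 6 genes fell from 3 to 6 h in null lines.

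Null lines were compared with WT lines in each treatment. In SB, each of the 6 genes was lower in both null lines than in both WT lines, as were 22.6% of all genes. The log2 differences were -0.46 for Sall2, -0.43 for Zic2, -0.34 for Pou3f1, -0.28 for Zic5, and -0.22 for both Otx2 and Foxd3. No member was called: the adjusted p was 0.0726 for Sall2 and Zic2, 0.0865 for Pou3f1, and 0.235 to 0.299 for the others. Each unadjusted p was between 0.000375 and 0.0256, and 1910 of the 12823 genes had an unadjusted p below 0.05. limma called 0.312% of all genes in this comparison (0.25% higher and 0.0624% lower), and both null lines were higher for 0 members (24.5% of all genes). The median difference was -0.31 over the members and -0.0031 over all genes.

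At 3 h of Activin the 2 genotypes were closer. The differences ran from -0.09 (Otx2 and Sall2) to 0.18 (Foxd3), with a median of -0.0048 over the members. An unadjusted p below 0.05 was reached by 0 members and by 1655 of all genes. Zic2 differed by 0.09 (95% interval -0.08 to 0.27) and Pou3f1 by 0.02 (-0.13 to 0.16). Otx2 and Sall2 were lower in both null lines, against 25.6% of all genes, and Foxd3 was higher in both, against 22.6%. limma called 0.382% of all genes (0.133% higher and 0.25% lower) and 0 members.

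At 6 h the 6 genes were again lower in both null lines than in both WT lines, against 25.7% of all genes. Foxd3 differed most, at -0.53 (SE 0.0833, adjusted p = 0.057), followed by Zic2 at -0.37 (adjusted p = 0.117), Zic5 at -0.31, Pou3f1 at -0.28, Otx2 at -0.23 and Sall2 at -0.21 (adjusted p = 0.308). No member was called, against 0.211% of all genes (0.148% higher and 0.0624% lower). Each unadjusted p was between 0.000147 and 0.0302, and 1881 of all genes had an unadjusted p below 0.05. Leaving out a null line leaves the other alone in its genotype, with its spread taken from the WT groups. The median difference over the members was -0.33 in SB and -0.28 at 6 h without null line 25. It was -0.29 and -0.32 without null line 39. Without WT line 18 the median difference over the members was -0.29 in SB and -0.31 at 6 h, and without WT line 26 it was -0.33 and -0.28. In these fits without a WT line, fewer members and fewer of all genes had an unadjusted p below 0.05 than with all lines.

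With the cell line as the unit, the mean over the 3 libraries of a line was lower in null than in WT lines for each member, by 0.18 for Otx2 to 0.25 for Sall2 on the log2 scale. The limma adjusted p was 0.291 for Zic2 and up to 0.361 for Foxd3 and Zic5, with 0 members and 0% of genes called (6 members and 1710 genes had an unadjusted p below 0.05). Without WT line 18 or WT line 26, 0 members had an unadjusted p below 0.05, with 970 and 1063 genes. The difference between genotypes in the response was called by limma for 0 genes at 3 h and 0 at 6 h (at 3 h 2 genes with quantile normalization and 3 with the line as a block, none of them a member). At 3 h, 4 members (Zic2, Foxd3, Sall2, Pou3f1) and 654 of all genes had an unadjusted p below 0.05, with differences of 0.36 to 0.52. That count was 1 member without WT line 18 (314 genes) and 3 without WT line 26 (366 genes), and 5 with the line as a block (1596 genes). At 6 h only Foxd3 did among the members (-0.31, unadjusted p = 0.0286), and 382 of all genes. It was 2 members with the line as a block (716 genes) and 2 with quantile normalization (439 genes). Foxd3 did not stay below 0.05 when any line was left out. Fewer of all genes did without a WT line, and more without a null line. The log2 change of Foxd3 at 6 h was -0.15 in line 18, -0.08 in line 26, -0.43 in line 25 and -0.42 in line 39. The differences between genotypes in the response share the SB libraries with the comparison of genotypes in SB.

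**Figure D4:**
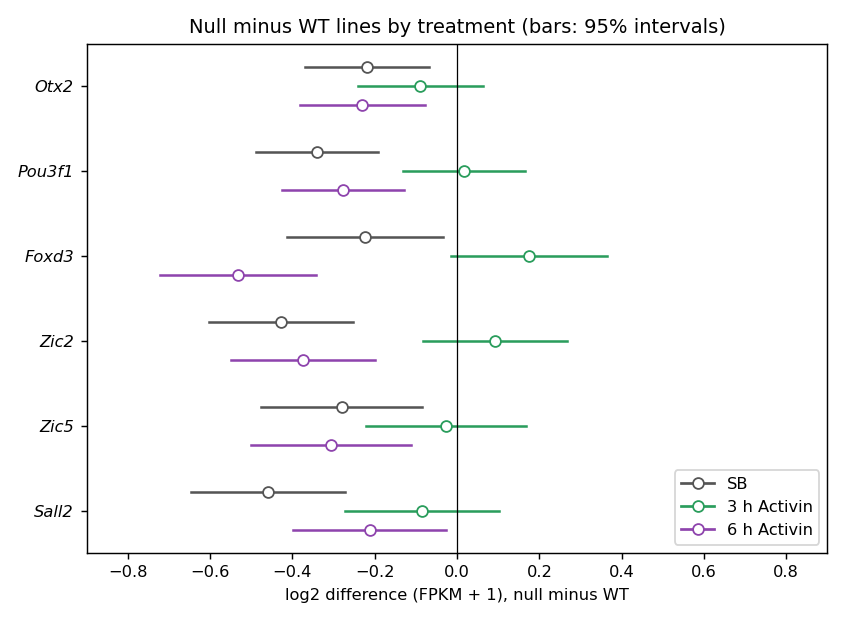
Log2 difference in FPKM + 1, null minus WT lines (horizontal axis), of the 6 genes (vertical axis) in SB and at 3 and 6 h of Activin, with bars for 95% intervals. All points are open because no adjusted p was below 0.05; the intervals at 3 h include 0 for each gene, and those in SB and at 6 h lie below 0.

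The wider set of formative and primed epiblast genes listed for comparison held 22 names, of which 18 were among the genes kept and all of these were tested. At 3 h in WT lines 4 rose and 5 fell, with a median log2 change of -0.08 against -0.01 over all genes, and in null lines 5 rose and 2 fell. The genes with the largest rises were Fgf15 (3.02 in WT, 2.76 in null), a fibroblast growth factor gene, Tcf15 (2.16 and 1.64), a helix-loop-helix factor gene tied to priming, and Epha2 (2.13 and 2.13), an ephrin receptor gene. Fgf5, the standard marker of the formative epiblast, rose by 0.49 and 0.51, while Grhl2, an epithelial enhancer factor gene, fell by 0.56 and 0.53. Without WT line 18 or 26 fewer of the 18 were called in either genotype and none of the falls, and fewer of all genes were called too. In WT lines those still called were the rises of Fgf15, Tcf15 and Epha2.

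At 6 h 4 of the 18 rose and 4 fell in WT lines, and 6 rose and 2 fell in null lines. Fgf5 rose by 0.86 in WT and 1.03 in null lines from SB, Dnmt3l, a cofactor of DNA methylation, fell by 0.60 and 0.61, and Lef1, a WNT effector gene, fell by 0.67 in WT lines (adjusted p = 0.0258) with a change of -0.55 in null lines (adjusted p = 0.0526). Without WT line 18 or 26 none of these falls was called in either genotype, and fewer of all genes were called too. In null lines fewer of the 18 were also called without null line 25 or 39. The 6 transcription factor genes thus moved by at most 0.62 at either time, while Fgf15, Tcf15 and Epha2 moved by over 1 at both. Fgf15 was below 1 FPKM on average in SB, where the log2(FPKM + 1) scale understates a change.

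**Figure D5:**
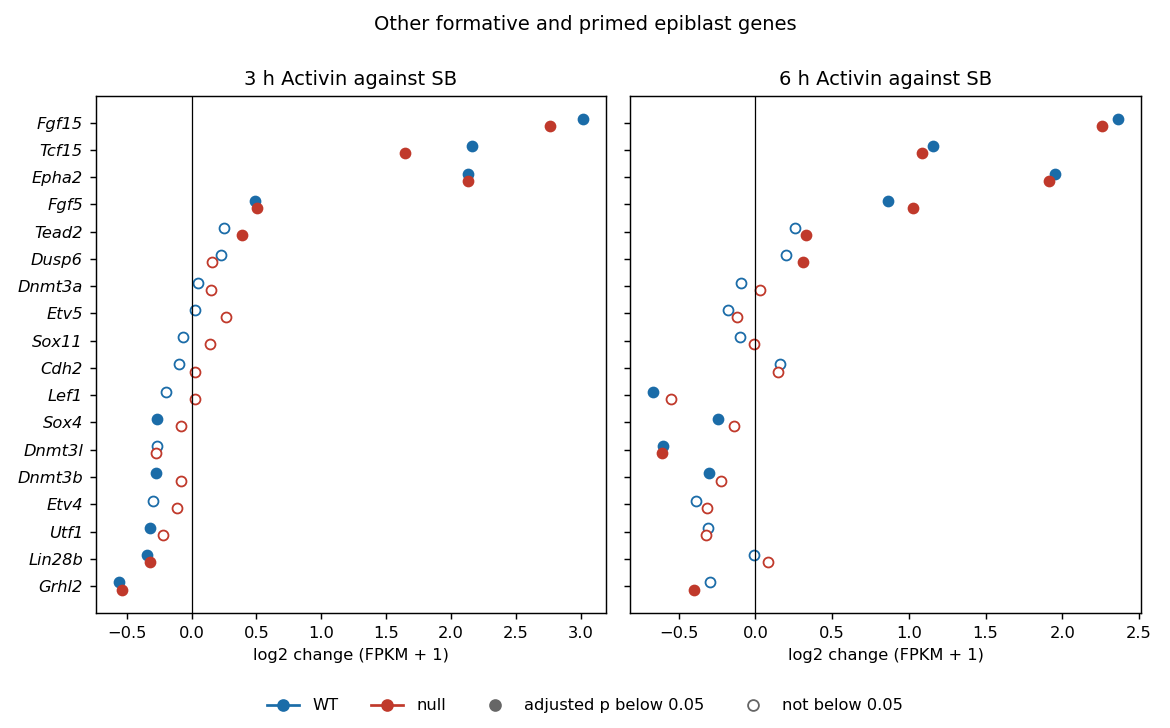
Log2 change in FPKM + 1 (horizontal axes) of 18 other formative and primed epiblast genes (vertical axes) in WT and null lines at 3 h and 6 h of Activin against SB, with filled points where the adjusted p was below 0.05. Fgf15, Tcf15 and Epha2 rose by over 1 at both times, and Fgf5 rose further at 6 h.

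Between genotypes, the log2 difference was negative for 18 of the 18 genes in SB (median -0.23) and at 6 h (median -0.20), and for 14 at 3 h (median -0.19), where the medians over all genes were -0.0031 in SB, -0.014 at 6 h and -0.0043 at 3 h. Only Fgf5 was called, lower in null lines in SB (-0.61, adjusted p = 0.00972) and at 3 h (-0.59, adjusted p = 0.0114). That call was lost in SB without WT line 18, WT line 26 or null line 39 (adjusted p = 0.43, 0.42 and 0.095), and at 3 h without the same lines (0.59, 0.31 and 0.072). Of 11 naive pluripotency genes tested, Zfp42 (Rex1) was called higher in null lines in SB (0.52, adjusted p = 0.023) and at 3 h (0.44, adjusted p = 0.0423), and both calls were lost without WT line 18, WT line 26 or null line 39, the 3 h call without null line 25 too (adjusted p = 0.068). Over the 11 naive genes the median difference of null from WT lines was 0.07 in SB and 0.21 at 3 h. It was positive for 7 genes and negative for 4 in each. At 3 h against SB in WT lines, 2 of the 11 naive genes rose (Nanog, Tbx3) and 4 fell. Fewer of them were called without WT line 18 or 26, as were fewer of all genes. Nanog was still called higher in either fit, and Zfp42 was called lower only without WT line 18.

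Of 16 listed relatives of the 6 genes, 5 were measured and tested. At 3 h in WT lines Sall3, another spalt gene, fell by 1.27 (adjusted p = 0.00831) and Sall4, which sustains pluripotency, by 0.42 (adjusted p = 0.0111), where Sall2 changed by 0.02. In null lines at 3 h Sall3 fell by 0.83, and the change of Sall4 was -0.02 (adjusted p = 0.868). Of 8 neural genes tested, 1 rose and 2 fell at 3 h in WT lines and 0 rose and 3 fell at 6 h. Of 6 neural crest genes, 2 rose (Msx1 by 2.56 and Msx2 by 0.76) and 1 fell (Twist1, by 0.48) at 3 h in WT lines. Without WT line 18 or WT line 26, fewer of all genes were called in either genotype. The calls of the relatives and of the neural genes at 3 h and 6 h in WT lines were then lost, as was that of Sall3 in null lines. Of the neural crest genes only Msx1 at 3 h was still called in WT lines. The call of Sall3 in null lines was also lost without null line 25 or 39.

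Across the 12 libraries the members fell into loosely similar patterns, given as Pearson correlations of log2(FPKM + 1) that share lines, treatments and scaling. Otx2 and Sall2 had r = 0.85, Pou3f1 had r = 0.83 with both Foxd3 and Sall2, and Zic2 and Zic5 had r = 0.48. Zic5 had r = -0.22 with Sall2 and -0.14 with Otx2. Among 7211 tested genes with a mean of at least 5 FPKM, those most like Otx2 were Myrf (0.94), Zfp219 (0.93) and Mtcl1 (0.93), and those most like Sall2 were Etv5 (0.95), Smarcd1 (0.94) and Bend3 (0.93). For Pou3f1 they were Usp8 (0.95), Ubap2 (0.94) and Pabpc1 (0.94). For Zic2 they were Scamp3 (0.91), Zfp512 (0.90) and Tmem41a (0.90), and for Zic5 Mettl4 (0.90), Prpf38b (0.89) and Ddx31 (0.88). For Foxd3 they were the locus that joins Pak4 and Samd4b, Msl2 and Cebpb (0.84 each).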

How the data were processed

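Poly(A) RNA was sequenced as 50 bp single reads, per the labels' protocols. The authors deposited FPKM per locus with a status column, per the file headers. The build is mm10, per the submitters' processing notes. Alignment was done by the sequencing provider, per the labels; the aligner is not given in the sources used here. The same holds for the quantifier, strandedness and library scaling. Of 17446 loci, 2666 unnamed, 27 with a status other than OK and 1245 further loci of a repeated name were left out, which gave 13508 genes. The 12823 genes reaching 1 FPKM in 2 or more libraries were tested on log2(FPKM + 1) using limma (version 3.58.1, R version 4.3.3), with 6 group means, a variance trend and 6 residual degrees of freedom; the procedure was tested on simulated data. For genotype, the libraries of a line count as independent except where the line is the unit. Libraries of a line are paired, since they come from the same cell line; the deviations of a line's libraries from their group means correlated at 0.0165 to 0.0537 in WT and 0.246 to 0.349 in null lines. Alternatives were another pseudocount, other filters, quantile normalization, the line as a block, only the groups compared, and each line left out.

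All 6 members are described, with up to 3 called genes of each comparison list and the 3 genes most correlated with each member. The members, lists and tests were chosen with earlier results of these data known.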

Additional observations from a re-analysis of the deposited data

Results flagged for a closer look

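Foxd3 and Zic5 moved in opposite directions in the 2 genotypes at 3 h, in each line. Foxd3 was lower at 3 h than in SB in both WT lines (log2 changes of -0.36 and -0.13 in lines 18 and 26) and higher in both null lines (0.21 and 0.10 in lines 25 and 39), a difference between genotypes of 0.40 (limma adjusted p = 0.758). Zic5 changed by -0.17 and -0.11 in the WT lines and by 0.08 and 0.15 in the null lines, a difference of 0.25 (limma adjusted p = 0.928). Neither difference was called. The share of all genes that moved in opposite directions in this way was not counted, so the flag is no result particular to these members. Groups of 2 lines are too small to look for single libraries that stand apart.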

How the results depend on the processing

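Of 690 recomputed log2 values of the 6 genes, 603 kept their direction and their side of the threshold, 60 lost a call, 15 gained a call and 12 changed sign. Each sign change was of a value not called in the fit with all lines. With quantile normalization the difference of Otx2 between genotypes in the 6 h response was 0.020. When each line was left out in turn, that difference ran from -0.052 to 0.030 for Otx2, -0.012 to 0.14 for Pou3f1 (-0.011 without null line 39), -0.037 to 0.14 for Zic2 and -0.11 to 0.062 for Zic5. Between genotypes at 3 h Pou3f1 ran from -0.0071 to 0.040 and Zic5 from -0.094 to 0.042 (0.0040 without WT line 26). Sall2 at 3 h in WT lines ran from -0.021 to 0.053, Pou3f1 at 3 h in null lines from -0.0041 to 0.20, and Zic2 from 3 to 6 h in null lines from -0.12 to 0.053. The causes of these changes were not tested.

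Leaving out each line in turn gave 0 to 3 called members at 3 h and 0 to 3 at 6 h in WT lines, 0 to 4 from 3 to 6 h in WT lines, 0 to 2 at 3 h, 0 to 1 at 6 h and 0 to 0 from 3 to 6 h in null lines, 0 to 4 between genotypes in SB and 0 to 3 at 6 h. The counts over all genes in these fits ran from 137 to 4354 at 3 h and 89 to 3897 at 6 h in WT lines, 0 to 456 from 3 to 6 h in WT lines, 243 to 2058 at 3 h and 384 to 1779 at 6 h in null lines, 0 from 3 to 6 h in null lines, 0 to 2047 between genotypes in SB and 0 to 1508 at 6 h, so a count of members moved with the share of all genes called. On the means of the lines, where 0 genes were called with all lines, 128 were called without WT line 18, 178 without WT line 26 and 1193 without null line 25, with 0 members among them. With only the groups compared, 0 members were called from 3 to 6 h in WT lines and in each of the 3 null contrasts; that fit has fewer samples. With the line as a replicate block 4 members were called at 3 h in WT lines (1 rise, 3 falls), 3 at 6 h in WT lines, and 3 at 6 h in null lines, against 3, 2 and 2 without it, and no other member gained or lost a call. Over all genes the block gave 4772 calls at 3 h in WT lines against 2882. At 6 h it gave 4342 against 2039 in WT lines and 4026 against 1718 in null lines. A pseudocount of 0.1 or no filter changed no member's call. Quantile normalization moved the split of all calls from 1622 higher and 1260 lower to 1372 and 1699 at 3 h in WT lines, and from 1230 and 809 to 1160 and 1328 at 6 h. Read totals are unknown, so no counting error could be given for single values.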
